A study of Mus musculus with 6 samples.

Results

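Purinergic receptors and ectonucleotidases are the proteins with which microglia, the resident macrophages of the brain, sense and remove extracellular nucleotides. The set described here holds 10 genes named by symbol, P2ry12, P2ry13, P2ry6, P2ry14, P2rx4, P2rx7, Entpd1, Nt5e, Adora3 and Adora2a, of 24956 gene rows in the deposited count table. All 10 were in the table and all 10 passed the filter on low counts, among 14520 genes tested. RNA was sequenced in bulk from microglia of 3XTg-AD mice aged 7 months, isolated by flow cytometry. The anti-NK1.1 group had received 25 µg of an antibody that depletes natural killer (NK) cells through their surface receptor NK1.1, and the isotype group a control antibody on the same schedule, every 4 days for 4 weeks. Mice of both groups carried the alleles of the strain, which include mutant human APP and MAPT transgenes under a neuronal Thy1 promoter, so there was no group without the disease alleles. Each group had 3 libraries, and nothing in the labels says whether a library came from 1 mouse or from several, so the p-values measure the spread between these libraries. The comparison asks how the microglial transcriptome differs once NK cells are depleted.

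Extracellular ATP and ADP mark tissue damage. P2Y receptors are G protein-coupled receptors for nucleotides, and P2X receptors are cation channels opened by ATP. In microglia P2RY12 directs the processes towards sources of ADP and is a standard marker of the resting state. The ectonucleotidase CD39, the product of Entpd1, cleaves ATP and ADP to AMP, CD73, the product of Nt5e, cleaves AMP to adenosine, and adenosine acts on its own receptors, among them those encoded by Adora3 and Adora2a.

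On GRCm38 (mm10), as annotated by GENCODE, P2ry14 (chromosome 3, 59113855 to 59153618), P2ry13 (59207892 to 59210882) and P2ry12 (59216272 to 59262871) lie side by side on the minus strand, within the span of Med12l, which runs on the plus strand. P2rx7 (chromosome 5, 122643911 to 122691432) and P2rx4 (122707544 to 122729738) are also neighbours, both on the plus strand. P2ry6 lies on chromosome 7 (100937630 to 100974649), Entpd1 on chromosome 19 (40612366 to 40741602), Nt5e on chromosome 9 (88327197 to 88372092), Adora3 on chromosome 3 (105870858 to 105908926) and Adora2a on chromosome 10 (75316877 to 75334784). The 9 bases of exon that P2ry12 shares with Med12l are 0.4% of its exons, and P2ry13 and P2ry14 share none. Adora3 shares 779 bases, 20.9% of its exons, with Tmigd3 on the same strand. The library kits do not mark strand, so reads in shared or intronic sequence cannot be assigned with certainty. Med12l had 451, 722 and 175 counts in anti-NK1.1 libraries 1 to 3 and 1169, 509 and 844 counts in isotype libraries 1 to 3. Tmigd3 had 0, 11 and 0 counts in anti-NK1.1 libraries and 0, 13 and 38 counts in isotype libraries, far below Adora3.

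The stretches just before the start of 4 of these genes are shown because P2ry13 and Entpd1 had the profiles over the libraries closest to that of P2ry12 among the genes of the set compared with it, and P2rx4 and Adora3 were higher after anti-NK1.1 with no overlap between the groups. Each is the 250 bases before a RefSeq start on GRCm38.p6, read 5′ to 3′ on the gene's strand, with matches to 3 motifs in capitals: GAGGAAGT (bound by PU.1, a transcription factor that microglia require), TGANTCA (AP-1) and ACGTG (the core of the hypoxia response element), searched on both strands. The windows are chr3:59210883-59211132 (minus strand) for P2ry13, chr19:40659520-40659769 (plus) for a downstream start of Entpd1, chr5:122707294-122707543 (plus) for P2rx4 and chr3:105904171-105904420 (plus) for Adora3.
P2ry13: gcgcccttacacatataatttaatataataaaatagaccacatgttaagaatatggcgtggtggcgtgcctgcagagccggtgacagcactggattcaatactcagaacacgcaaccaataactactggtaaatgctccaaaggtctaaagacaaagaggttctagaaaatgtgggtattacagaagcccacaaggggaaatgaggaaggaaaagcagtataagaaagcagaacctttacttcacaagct
Entpd1: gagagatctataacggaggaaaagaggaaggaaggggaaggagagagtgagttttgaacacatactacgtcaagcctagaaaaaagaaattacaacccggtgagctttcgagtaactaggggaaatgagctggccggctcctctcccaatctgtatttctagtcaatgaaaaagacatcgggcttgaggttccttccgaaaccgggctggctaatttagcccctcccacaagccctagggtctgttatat
P2rx4: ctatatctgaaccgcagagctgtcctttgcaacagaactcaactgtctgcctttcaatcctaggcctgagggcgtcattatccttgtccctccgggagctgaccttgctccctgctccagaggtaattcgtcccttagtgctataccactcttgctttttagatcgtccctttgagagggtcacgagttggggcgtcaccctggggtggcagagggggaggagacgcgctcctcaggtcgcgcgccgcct
Adora3: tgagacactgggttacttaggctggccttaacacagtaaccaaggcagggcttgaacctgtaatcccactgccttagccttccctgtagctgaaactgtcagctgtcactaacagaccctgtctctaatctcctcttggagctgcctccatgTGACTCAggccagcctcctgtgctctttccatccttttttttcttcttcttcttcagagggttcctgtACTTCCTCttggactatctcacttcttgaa
Of these 4 windows, that of Adora3 alone held a match, with AP-1 letters 98 bases and PU.1 letters, on the opposite strand, 30 bases before the start. RefSeq gave 13 windows for 8 of the 10 genes, and P2ry6 and Adora2a had no entry. The PU.1 letters were in 1 of the 13 windows, against 2.44% of 32851 promoters of the same length, the AP-1 letters in 4 against 6.75%, and the ACGTG letters in 1, that of P2ry12, against 16.6%. The windows are not separate genes, as some genes have several, and those of P2ry14 overlap in part. The AP-1 matches lay in P2ry14, P2rx7 and Adora3, with more than 1 in P2ry14. A match is a string of letters and not a measured binding site.

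The libraries held 26.9 M to 31.4 M gene counts in the anti-NK1.1 group and 31.9 M to 36.1 M in the isotype group, and the 10 genes took 0.353% to 0.726% of them in the anti-NK1.1 group and 0.698% to 0.807% in the isotype group. The libraries differed in ways that the groups do not explain. Across 10109 genes the rank correlation of a library's deviation with transcript length was -0.32, 0.33 and -0.46 in anti-NK1.1 libraries 1 to 3 and 0.06, 0.12 and 0.48 in isotype libraries 1 to 3, which means fewer counts for long transcripts in libraries 1 and 3 of the anti-NK1.1 group. The summed level of 12 microglia markers was 34752 to 41626 CPM in the anti-NK1.1 group and 34846 to 39908 CPM in isotype libraries. CPM are counts scaled to a common library size by trimmed mean of M values (TMM) factors. Summed neutrophil markers ranged from 32505 to 140975 CPM after anti-NK1.1 and from 73066 to 100615 CPM with isotype antibody, all 10 with log2 changes below 0. Summed choroid plexus markers ranged from 22475 to 39681 CPM after anti-NK1.1 and from 6601 to 24315 CPM with isotype antibody, most of it Ttr (22169.9 to 39117 CPM after anti-NK1.1 and 6450 to 23829 CPM with isotype antibody). For 5 other lists the sums were higher after anti-NK1.1 with no overlap between groups. Border macrophage markers summed to 128 to 197 CPM in anti-NK1.1 and 62.5 to 96.5 CPM in isotype libraries. Oligodendrocyte markers summed to 755 to 879 CPM in anti-NK1.1 and 294 to 403 CPM in isotype libraries. Neuron markers summed to 177 to 562 CPM in anti-NK1.1 and 37.7 to 137 CPM in isotype libraries, most of it Meg3. T cell markers summed to 51.7 to 60.6 CPM in anti-NK1.1 and 25.3 to 47.8 CPM in isotype libraries, and B cell markers to 87.4 to 124 CPM in anti-NK1.1 and 48.7 to 86.8 CPM in isotype libraries. Of the markers in these 5 lists edgeR and limma-voom called none, and DESeq2 called Pf4, Cd209f, Mbp, Slc17a7 and Meg3, all higher. Among monocyte markers DESeq2 called Ccr2 and Fn1, both lower. In bulk RNA, fewer cells of a type and less RNA per cell cannot be told apart. Klrb1c, which encodes NK1.1, had 0, 0 and 13 counts in anti-NK1.1 and 50, 45 and 80 counts in isotype libraries.

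None of the 10 genes passed the test between groups. The quasi-likelihood test of edgeR called 0 of 10 at an adjusted p under 0.05, beside 0% of all 14520 genes. At an unadjusted p under 0.05 there were 3, all lower (P2ry12, P2ry13 and Nt5e), where the background was 6.54% in both directions and 3.80% lower. DESeq2 called 0 of the 10, beside 0.574% of all genes (83), and limma-voom 0 of the 10, beside 0%. At an unadjusted p under 0.05 each had 4 of the 10, beside 9.26% of all genes by DESeq2 and 9.71% by limma-voom. They were not the same genes. DESeq2 had P2ry12, P2ry13 and Nt5e lower and P2rx4 higher, and limma-voom had P2ry12, P2ry13 and Entpd1 lower and P2ry14 higher. The groups did not overlap for 3 genes, P2ry12 lower and P2rx4 and Adora3 higher, beside 15.3% of all tested genes (7.59% lower and 7.73% higher). Of the 10 genes, 6 had log2 changes below 0, with a median of -0.225, beside 49.1% and a median of 0.015 over all tested genes. Values of the set thus ran in both directions.

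**Figure D1:**
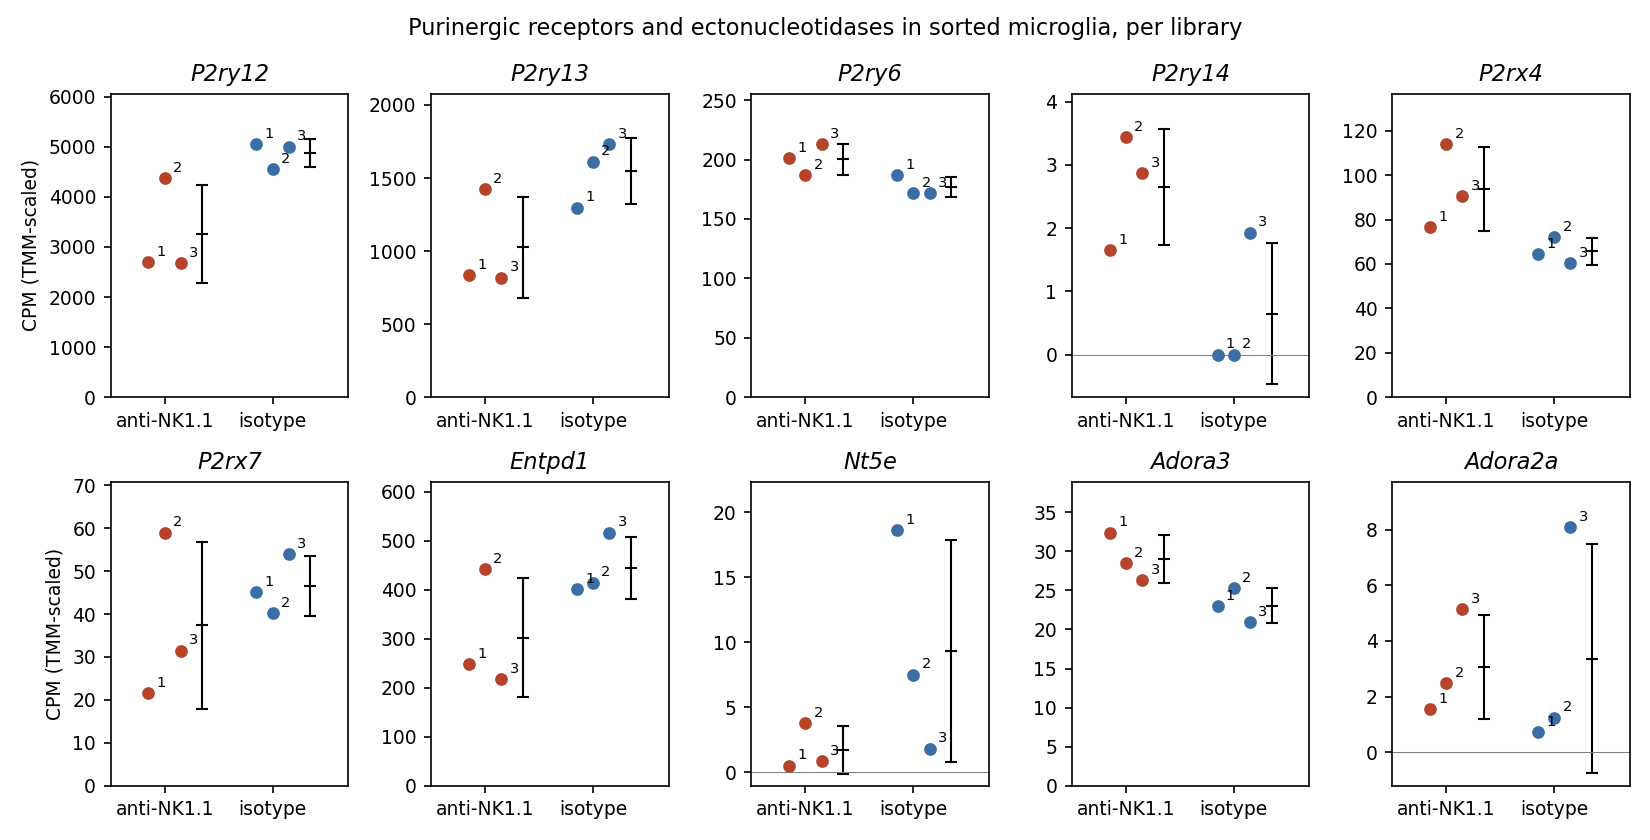
TMM-scaled CPM of the 10 genes in each library (numbered points), with the group mean and SD beside them, each panel on its own linear axis. P2ry12, P2ry13 and Entpd1 share a pattern in which anti-NK1.1 libraries 1 and 3 sit low and anti-NK1.1 2 sits near the isotype libraries.

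Among the P2Y receptors, the ADP receptors P2ry12 and P2ry13 lay lower in 2 of the 3 anti-NK1.1 libraries. P2ry12 had 2692, 4381 and 2682 CPM in anti-NK1.1 libraries 1 to 3, against 5054, 4554 and 5006 CPM in isotype libraries 1 to 3. Every anti-NK1.1 value was below every isotype value, with anti-NK1.1 2 close to isotype 2. The means were 3251 ± 978 CPM after anti-NK1.1 and 4872 ± 276 CPM with isotype antibody (SD, n = 3 each), and the log2 change was -0.58 ± 0.23 (SE; edgeR adjusted p = 0.727). An approximate 95% interval for that change ran from -1.11 to -0.06. Without TMM factors and on the per-length scale the groups overlapped.

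P2ry13, also a receptor for ADP, had 836, 1422 and 818 CPM in anti-NK1.1 libraries, against 1298, 1612 and 1732 CPM in isotype libraries. Anti-NK1.1 1 and 3 were below all isotype libraries and anti-NK1.1 2 lay inside their range. Its log2 change was -0.59 ± 0.26 (edgeR adjusted p = 0.743). The ratio of the receptors, which needs no library scaling, overlapped between the groups. There were 3.22, 3.08 and 3.28 counts of P2ry12 per count of P2ry13 in anti-NK1.1 libraries and 3.90, 2.82 and 2.89 in isotype libraries, a log2 difference of 0.01 (exact two-sided permutation p = 1).

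P2ry6, a receptor for UDP linked to phagocytosis by microglia, had values close together in all 6 libraries. It had 201, 187 and 213 CPM in anti-NK1.1 libraries, against 187, 172 and 172 CPM in isotype libraries. The groups touched at 187 CPM, and the log2 change was 0.18 ± 0.20 with an approximate 95% interval from -0.26 to 0.62 (edgeR adjusted p = 0.840). With transcript length and GC content corrected for in each library, the value was -0.09, so no direction can be given for P2ry6.

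P2ry14, a receptor for UDP-glucose, was at the edge of detection. It had 44, 118 and 72 counts in anti-NK1.1 libraries and 0, 0 and 74 counts in isotype libraries. It was thus present in every anti-NK1.1 library and in 1 isotype library, whose count was above that of anti-NK1.1 1. A count of 0 allows up to 3 counts, or 0.0836 and 0.0930 CPM in isotype libraries 1 and 2, and this limit covers counting error only. The edgeR adjusted p was 0.803. Isotype 1 had no count of P2ry14 while it had the most counts of Med12l.

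The ATP-gated channels differed from one another. P2rx4, which opens at low ATP and is largely held in lysosomes, had 76.5, 114 and 90.5 CPM in anti-NK1.1 libraries, against 64.5, 72.2 and 60.4 CPM in isotype libraries. Every anti-NK1.1 library was above every isotype library. The means were 93.6 ± 18.9 CPM after anti-NK1.1 and 65.7 ± 6.01 CPM with isotype antibody (SD, n = 3 each), which gave 0.51 ± 0.24 as log2 change (edgeR adjusted p = 0.743). The value was 0.80 after the length and GC correction and also 0.80 without anti-NK1.1 1 and 3. Relative to the median of all genes it was 0.72 with that correction and 0.5 with no correction. P2rx4 was the gene of the set whose groups kept apart with and without scaling factors, though not on the per-length scale. P2rx4 is also expressed by macrophages and neurons. The summed markers of border macrophages and of neurons were likewise higher after anti-NK1.1 with no overlap. Most of the neuron sum was Meg3, at 144 to 471 CPM in anti-NK1.1 and 28.3 to 100.2 CPM in isotype libraries. Slc17a7 was also higher without overlap, while Snap25, Syt1, Rbfox3 and Gad1 overlapped between groups. The part of border macrophages and neurons in the P2rx4 values was not tested.

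P2rx7, which needs high ATP and triggers the NLRP3 inflammasome, had 21.6, 59.0 and 31.5 CPM in anti-NK1.1 libraries, against 45.2, 40.2 and 54.0 CPM in isotype libraries. The anti-NK1.1 group held both the lowest and the highest value of all 6 libraries. Its log2 change was -0.31 ± 0.38 (edgeR adjusted p = 0.852). The length and GC correction left -0.04, and without anti-NK1.1 1 and 3 the value was 0.35. Read within each library, there were 0.282, 0.518 and 0.349 counts of P2rx7 per count of P2rx4 in anti-NK1.1 libraries and 0.701, 0.557 and 0.895 in isotype libraries. Every anti-NK1.1 library had the lower ratio, at a mean log2 ratio of -1.43 ± 0.45 in anti-NK1.1 and -0.51 ± 0.34 in isotype libraries (SD, n = 3 each). An exact two-sided permutation test gave p = 0.1, the smallest that 3 against 3 libraries allow, and 0.3 after Benjamini-Hochberg adjustment over the 3 ratios examined. The ratios were chosen with earlier results of these data known, which that adjustment does not cover. P2rx4 has 7.03 kb and P2rx7 5.97 kb of annotated exons. The longest transcript, which the length trend of the libraries used, is 3895 nt for P2rx4 and 4936 nt for P2rx7. The length and GC correction was not applied to the ratio. With that correction the log2 changes of P2rx7 and P2rx4 were -0.04 and 0.80, against -0.31 and 0.51 without it. The part of transcript length in this ratio was not tested.

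**Figure D2:**
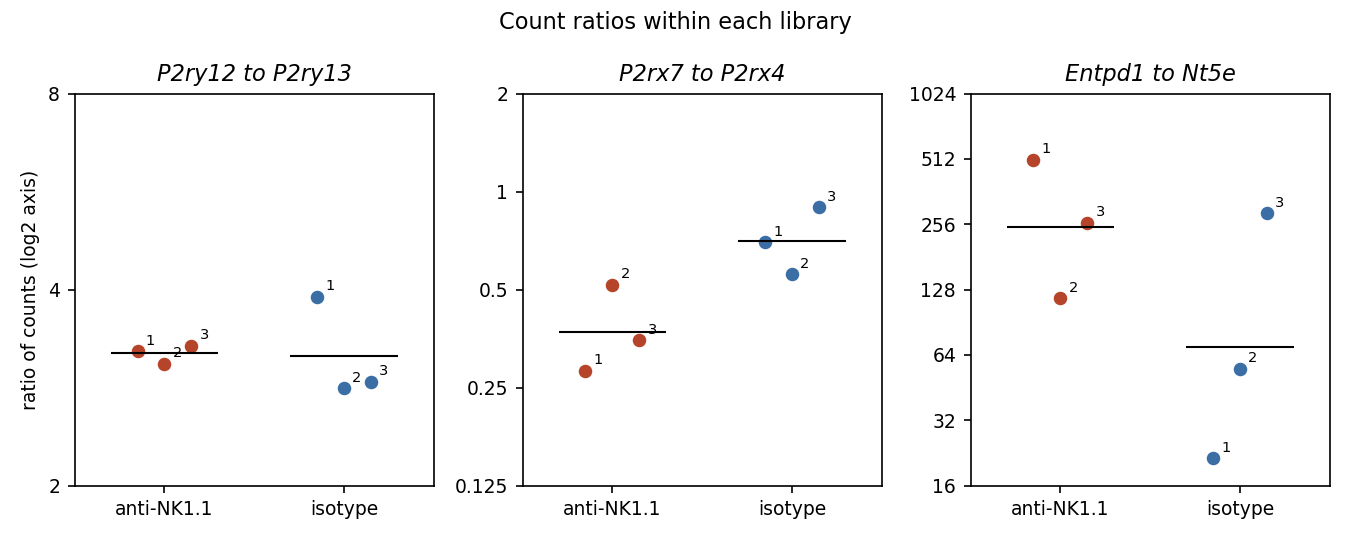
Ratio of counts between pairs of genes within each library on log2 axes, with lines at the group geometric mean. The P2rx7 to P2rx4 ratios do not overlap between groups, at 0.282 to 0.518 in anti-NK1.1 and 0.557 to 0.895 in isotype libraries, while those of P2ry12 to P2ry13 and of Entpd1 to Nt5e overlap.

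Of the ectonucleotidases, Entpd1 was abundant and Nt5e scarce. Entpd1 had 248, 442 and 218 CPM in anti-NK1.1 libraries, against 401, 415 and 517 CPM in isotype libraries. As for P2ry13, anti-NK1.1 1 and 3 were low and anti-NK1.1 2 fell among the isotype libraries. The means were 303 ± 122 CPM after anti-NK1.1 and 444 ± 63.6 CPM with isotype antibody (SD, n = 3 each), which gave -0.55 ± 0.29 as log2 change (edgeR adjusted p = 0.743). The length and GC correction left -0.17, and without anti-NK1.1 1 and 3 the value was 0.00.

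Nt5e had 13, 130 and 21 counts in anti-NK1.1 libraries and 668, 242 and 69 counts in isotype libraries, or 0.489, 3.79 and 0.836 CPM in the anti-NK1.1 and 18.6, 7.5 and 1.80 CPM in the isotype group. The 2 highest libraries were isotype 1 and 2, while isotype 3 lay below anti-NK1.1 2. The log2 change was -2.44 ± 1.04, with an approximate 95% interval from -4.77 to -0.10 (edgeR adjusted p = 0.743). Without isotype 1 it was -1.43, and without anti-NK1.1 2 it was -3.81. Nt5e is also expressed by lymphocytes, and summed markers of NK cells were 38.3 to 73.2 CPM in the anti-NK1.1 group and 84.0 to 130.3 CPM in isotype libraries, with 6 of 7 tested markers lower. Of the 8 NK cell markers listed, Klrd1, Nkg7, Gzma and Prf1 were detected in all 6 libraries. Klrb1c had no counts in anti-NK1.1 1 and 2, and Ncr1 had none in the 3 anti-NK1.1 libraries and in isotype 3. Klre1 had 0, 27 and 0 counts in anti-NK1.1 and 0, 64 and 30 in isotype libraries. Eomes, with a log2 change of 0.32, had 12, 10 and 21 counts in anti-NK1.1 and 0, 0 and 48 in isotype libraries. Summed markers of other lymphocytes went the other way. T cell markers were 51.7 to 60.6 CPM in anti-NK1.1 and 25.3 to 47.8 CPM in isotype libraries. B cell markers were 87.4 to 124 CPM in anti-NK1.1 and 48.7 to 86.8 CPM in isotype libraries. The part of NK, T or B cell RNA in the Nt5e values was not tested. The count ratio of Entpd1 to Nt5e was 508, 117 and 260.3 in anti-NK1.1 libraries and 21.5, 55.4 and 287 in isotype libraries, which overlapped (exact two-sided permutation p = 0.3, adjusted 0.45 over the 3 ratios).

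The adenosine receptors were low and showed no common direction. Adora3, a receptor coupled to inhibitory G proteins, had 32.4, 28.5 and 26.3 CPM in anti-NK1.1 libraries, against 23.0, 25.3 and 20.9 CPM in isotype libraries. All anti-NK1.1 values were higher, with anti-NK1.1 3 close to isotype 2. Its log2 change was 0.33 ± 0.30 with an approximate 95% interval from -0.33 to 1.00 (edgeR adjusted p = 0.803), and the groups overlapped without TMM factors and per length. Mast cells also express Adora3, and 4 of 4 tested mast cell and basophil markers had log2 changes below 0, with summed levels of 21.7 to 52.2 CPM in the anti-NK1.1 group and 47.6 to 80.6 CPM in isotype libraries. The part of mast cell RNA in the Adora3 values was not tested.

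Adora2a, a receptor that raises cyclic AMP, had 1.54, 2.48 and 5.14 CPM in anti-NK1.1 libraries, against 0.725, 1.24 and 8.09 CPM in isotype libraries. Isotype 3 was the highest and the other isotype libraries the lowest of the 6. The log2 change was -0.14 ± 1.05 (edgeR adjusted p = 0.980), and it was 1.63 without isotype 3 and -0.74 without anti-NK1.1 3. No direction can be given for this gene.

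**Figure D3:**
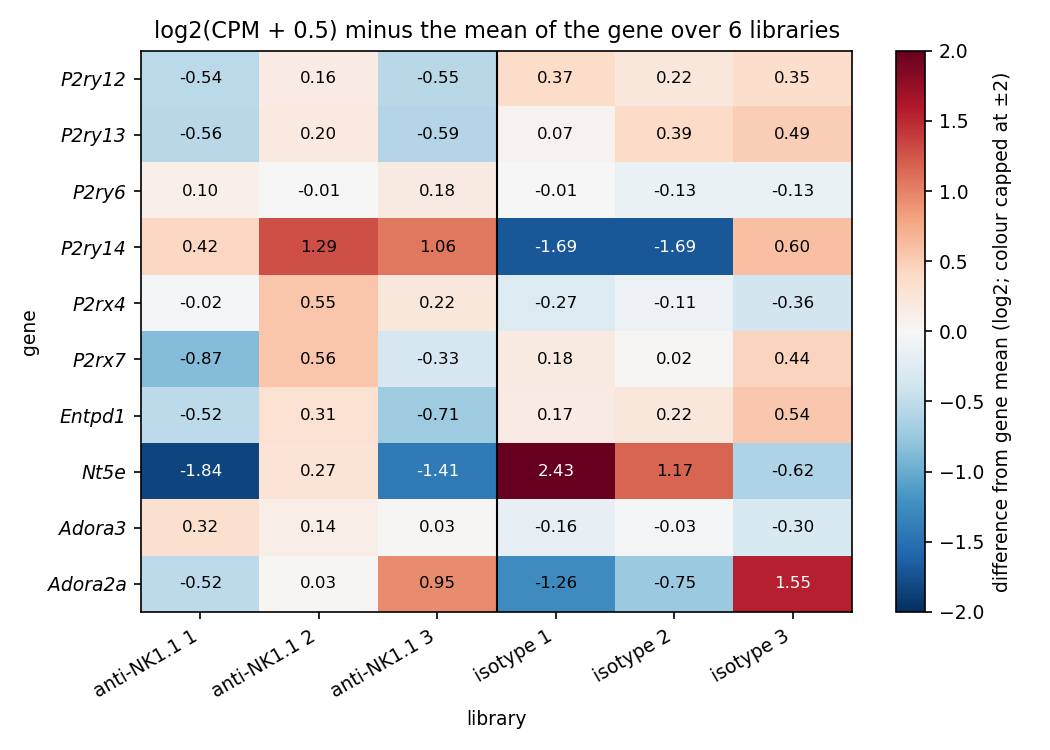
Level of each gene in each library as log2(CPM + 0.5) minus the gene's mean over the 6 libraries, with the value in each cell. P2ry12, P2ry13, Entpd1 and P2rx7 are below their mean in anti-NK1.1 1 and 3 and above it in the other 4 libraries, and P2rx4 is highest in anti-NK1.1 2.

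Levels can be compared between genes only per length, and TPM (counts divided by exon length and scaled to the same total in each library) over the annotated exons were used for that. P2ry12 was the most abundant with 2620.3 ± 1405 TPM in anti-NK1.1 and 3938 ± 487 TPM in isotype libraries, followed by P2ry13 with 836 ± 476 TPM in anti-NK1.1 and 1272 ± 308 TPM in isotype libraries (SD, n = 3 each). Their ranges did not overlap within either group. P2ry6 and Entpd1 came next and overlapped each other, at 109 to 158 TPM and 57.8 to 194 TPM in anti-NK1.1 and 120.2 to 136 TPM and 133 to 212 TPM in isotype libraries. P2rx4, P2rx7 and Adora3 formed a lower tier, from 7.13 to 39.7 TPM in anti-NK1.1 and from 11.4 to 20.9 TPM in isotype libraries. Within it P2rx4 was above Adora3 without overlap in both groups. Adora2a, Nt5e and P2ry14 were at the bottom, and none of the 3 exceeded 2.49 TPM in anti-NK1.1 or 6.05 TPM in isotype libraries.

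The profile of P2ry12 over the 6 libraries was set beside those of 8291 other genes with a mean of at least 10 CPM, by the root mean square difference of gene-centred log2 CPM. The nearest were Fli1, an ETS transcription factor (0.045), Pgm1, a phosphoglucomutase (0.057), Rab3ip (0.066), Nono, an RNA-binding protein (0.076), and Nde1 (0.080). Fli1 had 69.7, 117 and 65.3 CPM in anti-NK1.1 libraries, against 127, 112 and 129 CPM in isotype libraries, the same low values in anti-NK1.1 1 and 3. Of the set, Entpd1 ranked 45th (0.143), P2ry13 72nd (0.152) and P2rx7 501st (0.257), whereas P2ry6, Adora3 and P2rx4 ranked 3178th, 4125th and 4521st. The genes closest to P2ry12 share with it the 6 libraries and their depth.

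**Figure D4:**
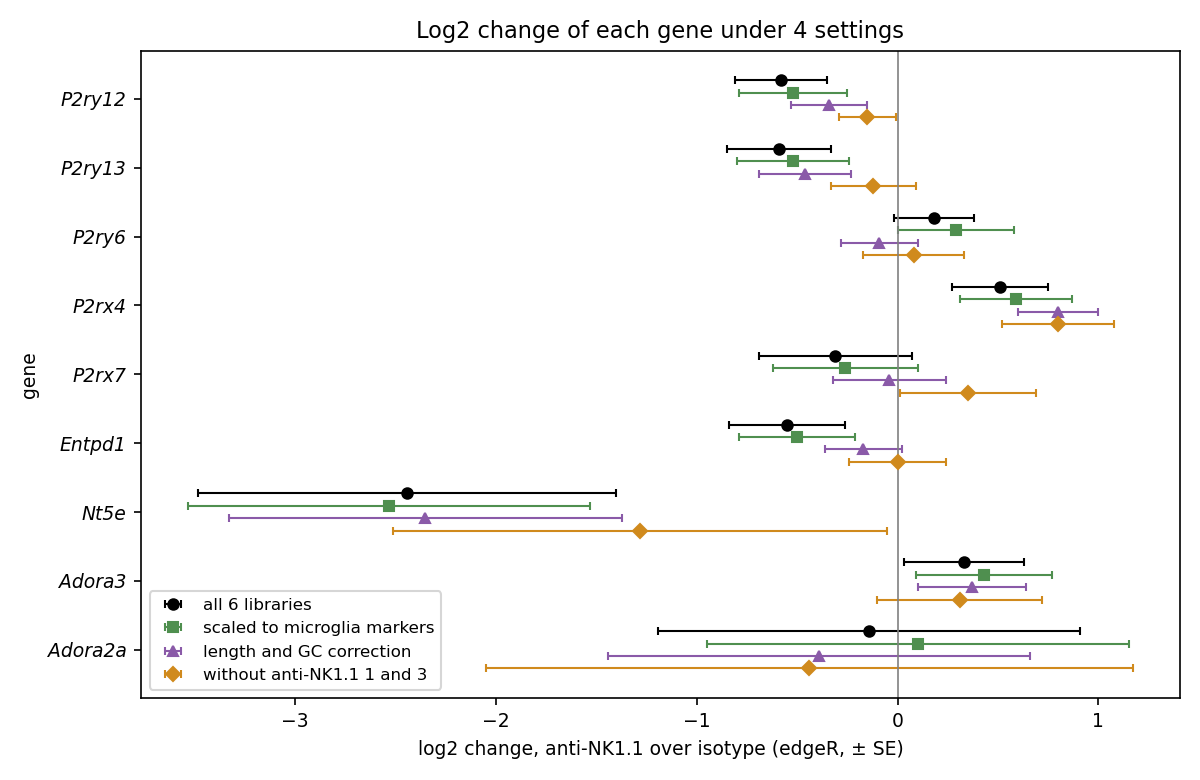
Log2 change (anti-NK1.1 over isotype, edgeR, with SE) of 9 genes with all libraries, with scaling to 12 microglia markers, with correction for transcript length and GC content, and without anti-NK1.1 1 and 3. P2ry14 is left out for its zeros. P2rx4 and Adora3 stay above 0 and P2ry12, P2ry13 and Nt5e below 0 in all 4 settings, while P2ry6, P2rx7 and Adora2a cross 0 in at least 1.

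The lowest values of P2ry12, P2ry13 and Entpd1 were those of anti-NK1.1 1 and 3. Leaving out these 2 libraries, which removes the low values and leaves 1 anti-NK1.1 library, assumed to vary like the isotype libraries, gave log2 changes of -0.15 for P2ry12, -0.12 for P2ry13 and 0.00 for Entpd1, and without anti-NK1.1 2 they were -0.86, -0.91 and -0.93. After the length and GC correction they were -0.34, -0.46 and -0.17, where the median over genes of the change between the fits was 0.13. Relative to the median of all genes in that fit they were -0.41, -0.53 and -0.25, against -0.60, -0.61 and -0.57 with no correction. Scaling to microglia markers gave -0.52 for P2ry12, -0.52 for P2ry13 and -0.50 for Entpd1, and the groups then did not overlap for any of the 3. The part of transcript length in these values beyond that correction was not tested.

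The rest of the pathway was read from a list of 61 further genes of nucleotide and adenosine signalling, of which 53 were tested. edgeR called 0 of them, beside 0% of all genes, DESeq2 called 0, beside 0.574%, and limma-voom called 0, beside 0%. At an unadjusted p under 0.05 edgeR had 1 higher and 3 lower, beside 2.74% higher and 3.80% lower over all genes, and the groups did not overlap for 7 of 53, beside 15.3%. The median log2 change was -0.02, with 24 above and 29 below 0. The receptors outside the set included Gpr34, a relative of the P2Y family for lysophosphatidylserine, and P2rx1. Of 6 tested P2X and P2Y receptors and relatives 3 were above and 3 below 0, and the smallest unadjusted p was 0.205. Of the 2 tested adenosine receptors outside the set, Adora1 was at 0.96 and Adora2b at -0.28 on the log2 scale, with a smallest unadjusted p of 0.238.

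The 8 genes of smallest p in that list were Ampd3, Plcb2, Gnai3, Alpl, Pik3cg, Nlrp3, Adcy7 and Panx2. Ampd3, an AMP deaminase, had 13.9, 19.7 and 20.4 CPM in anti-NK1.1 libraries, against 35.6, 33.1 and 53.7 CPM in isotype libraries, without overlap (log2 change -1.18 ± 0.34, edgeR adjusted p = 0.727). Plcb2, a phospholipase C below G protein-coupled receptors, had 12, 11.2 and 12.9 CPM in anti-NK1.1 libraries, against 25.1, 23.2 and 23.7 CPM in isotype libraries (log2 change -0.99 ± 0.34, edgeR adjusted p = 0.727). Both genes were lower in anti-NK1.1 2 as well as in the other anti-NK1.1 libraries. Gnai3, an inhibitory G protein subunit, had 64.3, 97.3 and 97.1 CPM in anti-NK1.1 libraries, against 106, 150.2 and 186 CPM in isotype libraries, also without overlap. Gnai2, the more abundant inhibitory subunit, had a log2 change of -0.02 ± 0.19.

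Pik3cg, the phosphoinositide 3-kinase catalytic subunit activated by G proteins, had 11.3, 81.6 and 14.6 CPM in anti-NK1.1 libraries, against 83.6, 69.8 and 145 CPM in isotype libraries. With all libraries its log2 change was -1.47 ± 0.68 (edgeR adjusted p = 0.743). As for P2ry12, anti-NK1.1 1 and 3 were low, and without anti-NK1.1 2 Pik3cg was called (log2 change -2.94, edgeR adjusted p = 0.0405), where 0.861% of all genes were called (129) and 0.781% were called lower (117). Nlrp3, the inflammasome sensor below P2RX7, had 5.53, 12.5 and 13.4 CPM in anti-NK1.1 libraries, against 16.4, 15.1 and 26.8 CPM in isotype libraries, without overlap. Adcy7, an adenylyl cyclase of immune cells, had 32.4, 65.9 and 33.9 CPM in anti-NK1.1 libraries, against 74.1, 63.0 and 63.2 CPM in isotype libraries, which overlapped. Alpl, tissue-nonspecific alkaline phosphatase, had 0, 839 and 238 counts in anti-NK1.1 libraries and 0, 28 and 30 counts in isotype libraries, and Panx2, a pannexin, had 34, 13 and 23 counts in anti-NK1.1 and 5, 5 and 8 counts in isotype libraries. Alpl overlapped between groups because anti-NK1.1 1 had no counts, and Panx2 was low throughout. Neutrophils and monocytes also express Nlrp3, Plcb2 and Pik3cg, and summed monocyte markers were 1341 to 5448 CPM in anti-NK1.1 and 4176 to 4746 CPM in isotype libraries, with 5 of 7 below 0. Most of that sum was Chil3, at 866 to 4083 CPM in anti-NK1.1 and 2977 to 3342 CPM in isotype libraries. Fn1, Ccr2 and F13a1 were lower without overlap, at log2 changes of -2.41, -1.68 and -1.70, while Plac8 and Vcan were above 0. Of the 7, edgeR called 0 and DESeq2 called Ccr2 and Fn1. The part of neutrophils and monocytes in the Nlrp3, Plcb2 and Pik3cg values was not tested.

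**Figure D5:**
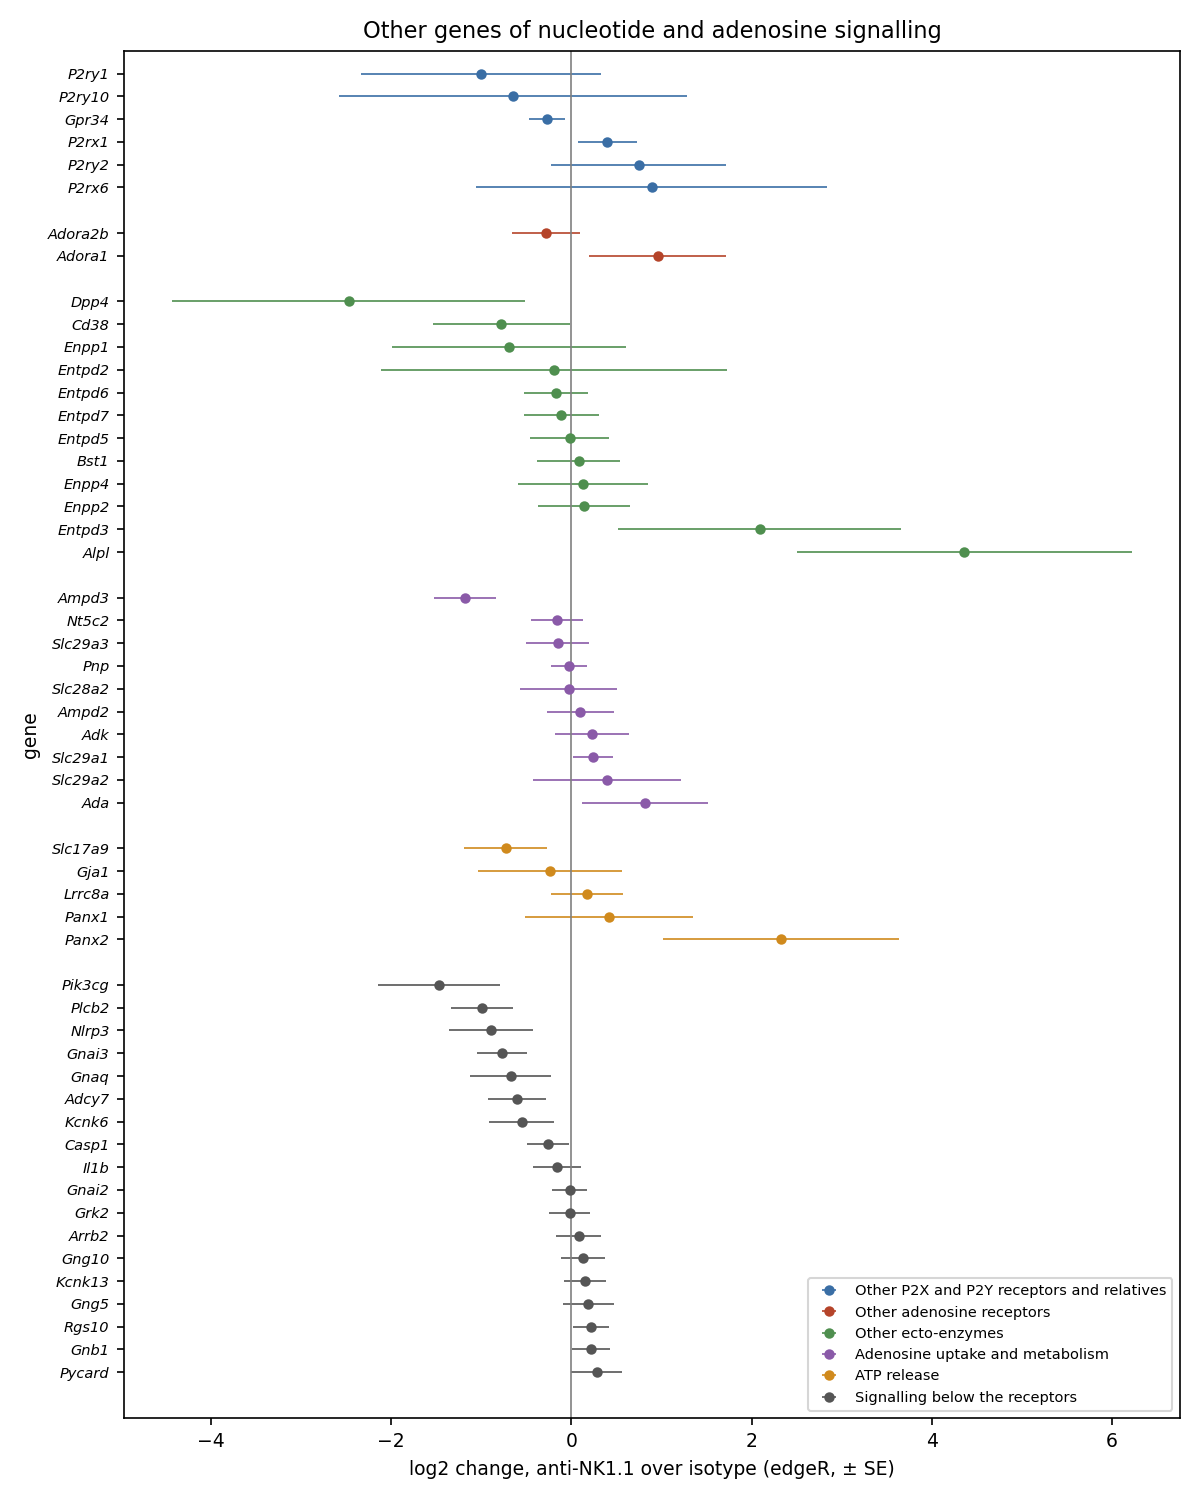
Log2 change (anti-NK1.1 over isotype, edgeR, with SE) of the 53 tested genes of nucleotide and adenosine signalling outside the set of 10, coloured by role. Values lie on both sides of 0 for every role, with 24 above and 29 below in all.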

How the data were processed

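Bulk RNA-seq of sorted microglia was deposited as 1 table for 6 libraries. Per the labels' protocols, cDNA was made with SMART-seq v4 and libraries with Nextera XT. Reads were single-end, of 75 bp. These kits use no molecular identifiers and do not mark strand. Per the submitters' processing notes the tools include STAR 2.5.3a and the build was mm10. The sources used here do not give the counting program. The table the authors deposited is described as normalized but holds whole-number read counts per gene. Left out were 26 rows in which the symbol and values read as dates, and 2 rows that name no gene, for ambiguous reads and for reads in no feature (the second with 53.3% to 57.4% of all).

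Counts were filtered with filterByExpr, scaled by TMM and compared between groups, with no further term, by the two-sided quasi-likelihood test of edgeR 4.0.16 (R 4.3.3). The p-values were adjusted over 14520 genes by the Benjamini-Hochberg method, with a threshold of 0.05. The SE is the absolute log2 change divided by the square root of F, and intervals add the t quantile. TPM used GENCODE exon lengths. Alternatives were DESeq2 1.42.0 and limma-voom (limma 3.58.1), other scalings and filters, a replicate block, a length and GC correction (smooth terms of mgcv 1.9.3 per library, for 99.1% of genes) and leaving out libraries. All 10 genes of the set are named, with the 8 genes of smallest p of the wider list, the 5 profiles nearest to P2ry12 and overlapping genes. The genes, lists and ratios were chosen with earlier results of these data known. The labels do not say whether same-numbered libraries of the groups are paired, and correlations of their deviations cannot settle it.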

Additional observations from a re-analysis of the deposited data

How the results depend on the processing

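None of the 10 genes was called under any of the 16 alternatives, and P2ry12, P2ry13, Nt5e, P2rx4, P2ry14 and Adora3 kept their direction in every alternative that could be fitted. Ranges of the log2 change were -0.86 to -0.15 for P2ry12, -0.91 to -0.12 for P2ry13, -0.93 to 0.00 for Entpd1, -3.81 to -1.28 for Nt5e, 0.34 to 0.80 for P2rx4, 0.25 to 0.43 for Adora3 and 1.45 to 9.36 for P2ry14, whose size rests on zeros. The smallest adjusted p was 0.0554, for P2ry12 without anti-NK1.1 2. P2ry6 turned to -0.09 with the length and GC correction, with or without the replicate block. P2rx7 turned to 0.35 without anti-NK1.1 1 and 3. Adora2a turned to 0.10 with scaling to microglia markers, 0.38 with limma-voom, 0.48 with the replicate block and 0.24 with the block and the length and GC correction, and ran from -0.74 to 1.63 with a library left out. P2ry14 and Adora2a were not tested with a minimum mean of 5 CPM.

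Over all genes, edgeR called 0, DESeq2 called 83 (48 higher, 35 lower), and leaving out 1 library gave 0 to 129 calls, the 129 without anti-NK1.1 2. The wider list had 0 to 1 calls with a library left out. The replicate block gave 0 calls over all genes and 0 in the set. The correlation of same-numbered libraries' deviations was 0.08, -0.14 and -0.06, and that of other pairs ran from -0.15 to 0.19. Deviations were centred within groups of 3, which ties these correlations to one another. They therefore cannot show whether the numbers pair libraries, and the labels do not say so. The cause of the differences in calls was not tested. The common biological coefficient of variation, which is shared by all tested genes, was 0.640. Within the set the SE of the log2 change ran from 0.20 for P2ry6 to 1.84 for P2ry14. Having 3 libraries a group limits the precision of each change, and counting error adds to the uncertainty mainly for P2ry14, Nt5e and Adora2a.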
